A study of Homo sapiens with 2 samples.

Results

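The EGFR family comprises 4 receptor tyrosine kinases (EGFR, ERBB2, ERBB3 and ERBB4) and a set of ligands made as membrane-anchored precursors. The rule took every row of the deposited table whose platform gene symbol was one of 10 genes, the 4 receptors and the 6 ligands AREG, EREG, TGFA, HBEGF, BTC and EPGN. Of these, 8 had a named probe (3 receptors and 5 ligands), among 17687 named genes in all. ERBB2 and AREG had no probe under their symbols in the annotation used and are not analysed here.

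The values came from SW48 cells, a human colorectal cancer line in wide use that is known to carry an activating mutation of EGFR. Cells received either AllStars negative control siRNA (siControl) or the siRNA Hs_YY1_1 against the zinc finger transcription factor YY1 (siYY1), each at 5 nmol/L, and total RNA was isolated after 3 days. Each condition had 1 array and 1 siRNA, and both arrays came from the same cell line in the same medium. There was therefore no replicate error and no test, and siRNA treatment, culture and array cannot be told apart. YY1 had no named probe, so the depth of the knockdown was not checked.

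Receptors of this family pair up when a ligand binds, and the pair phosphorylates its own tails, which recruit adaptors that switch on the RAS-ERK and PI3K pathways. EGFR binds AREG, EREG, TGFA, HBEGF, BTC and EPGN; ERBB3 and ERBB4 bind neuregulins, and ERBB4 also binds EREG, HBEGF and BTC. ERBB3 has little kinase activity of its own and signals through its partners. In colorectal cancer, tumours with much AREG and EREG are known to respond more often to antibodies against EGFR.

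The deposited values were taken as log2 values, and each difference below is siYY1 minus siControl. A gene was kept for counting when its mean over both arrays reached 7.54, the median of all named genes, and was called when the arrays differed by at least 1.5-fold (0.58 on the log2 scale). Of the 8 family genes measured, 6 were kept, and HBEGF and EPGN lay under the filter. Levels of different genes come from different probes and are not compared with each other.

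EREG, which encodes the ligand epiregulin, was the 1 family gene past 1.5-fold and was lower in siYY1. EGFR was higher by 0.34 and ERBB3 was lower by 0.27 (difference -0.27), neither past the threshold. Thus 1 of 6 kept genes was called lower and 0 higher, beside 3.78% of all 8844 kept genes called lower and 3.04% called higher. With so few members, 1 call cannot be set apart from that background. The median difference of the 6 was -0.12, beside 0.00 for all kept genes, whose interquartile range was -0.19 to 0.18. In RNA from whole cultures, fewer cells that express a gene and less of its RNA per cell cannot be told apart.

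**Figure D1:**
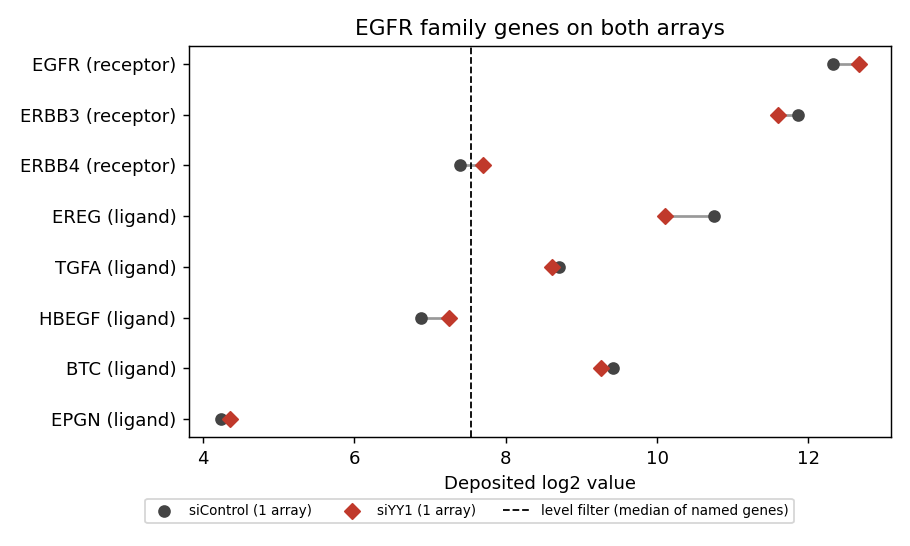
Deposited log2 value (x axis) of each of the 8 EGFR family genes with a named probe (y axis), with a circle for the siControl array, a diamond for the siYY1 array and a dashed line at the level filter of 7.54. The longest line joins the EREG values, 10.75 and 10.11, and ERBB4 straddles the filter; positions of different genes are not comparable with each other.

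Among the receptors, EGFR, which binds all 5 ligands of the rule that had a probe, had a value of 12.32 in siControl and 12.66 in siYY1. The siYY1 array was the higher one, by 0.34 or 1.27-fold. A difference at least this large in either direction was seen at 23.1% of kept genes. ERBB3, the kinase-impaired partner that couples strongly to PI3K, had 11.86 in siControl and 11.60 in siYY1. Here siYY1 was the lower array, 1.20-fold, and 34.0% of kept genes differed by as much or more. ERBB4 had 7.39 in siControl and 7.70 in siYY1, which made siYY1 the higher array by 0.30 or 1.23-fold. Its siControl value was under the filter value and its mean of 7.54 only just reached it. The filter is a median of genes and no background was measured. Neither value was therefore shown to be above background, and the size of the difference is uncertain.

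EGFR is shown with the sequence before its first listed start because it had the largest positive difference of the kept family genes. The window is chr7:55018767-55019016 of GRCh38.p14, plus strand, from the RefSeq promoter table, with matches to the motifs described further on in capitals. Both matches are GC boxes read on the opposite strand, in a window of 73.6% G and C.
EGFR: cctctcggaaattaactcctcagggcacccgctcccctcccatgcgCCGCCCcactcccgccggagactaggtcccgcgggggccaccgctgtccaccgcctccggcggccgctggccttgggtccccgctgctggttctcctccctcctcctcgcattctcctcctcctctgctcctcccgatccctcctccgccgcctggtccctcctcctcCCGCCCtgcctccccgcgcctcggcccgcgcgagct

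Among the ligands, EREG had a value of 10.75 in siControl and 10.11 in siYY1. The siYY1 array was lower by 1.56-fold (difference -0.64), which was 0.06 beyond the threshold. A difference this far or farther below 0 was found at 265 kept genes, or 3.00%, and one this large in either direction at 464. BTC, which encodes betacellulin, had 9.42 in siControl and 9.26 in siYY1 (difference -0.16). TGFA, which encodes transforming growth factor alpha, had 8.70 in siControl and 8.61 in siYY1 (difference -0.09). Both lay inside the interquartile range of all kept genes, and as large a difference was seen at 55.7% of kept genes for BTC and 75.5% for TGFA.

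The remaining ligands were dim. HBEGF, the heparin-binding ligand, had 6.87 in siControl and 7.24 in siYY1, so both values were under the filter value, with siYY1 the higher by 0.37. EPGN, which encodes epigen, had 4.23 in siControl and 4.36 in siYY1 (difference 0.12). Among the 8843 genes under the filter, 4.92% were higher and 4.03% lower by 1.5-fold or more, and their median absolute difference was 0.21 against 0.18 for kept genes. Neither gene passed 1.5-fold. All 3 kept ligands were below 0. Both dim ligands were above 0. With 1 array per group, the signs of dim values and of differences as small as those of BTC and TGFA are uncertain. A shared direction of the ligands was therefore not settled.

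**Figure D2:**
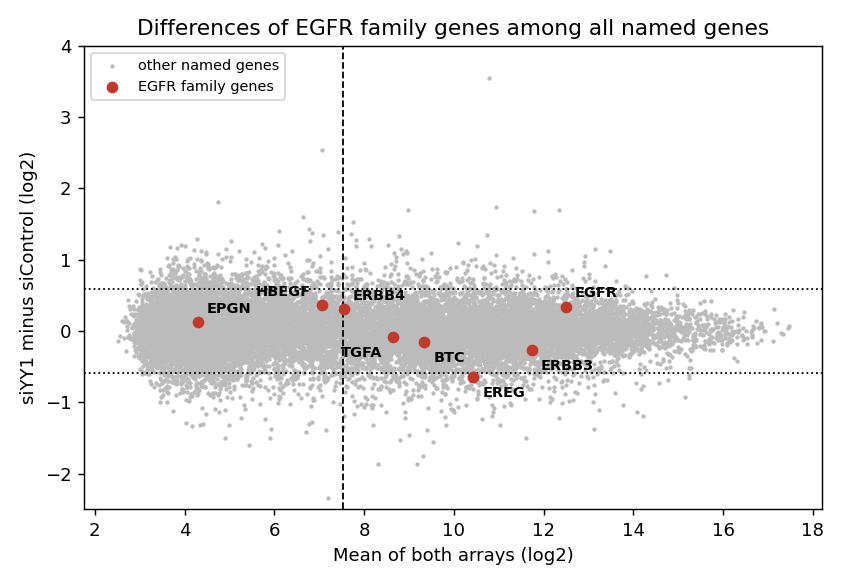
Difference between the arrays (y axis, siYY1 minus siControl, log2) against the mean of both arrays (x axis, log2) for every named gene (grey) and the 8 EGFR family genes (red), with dotted lines at 1.5-fold and a dashed line at the level filter. EREG lies just past the lower dotted line at -0.64, and the other 7 family genes lie between the lines.

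EREG lies on chromosome 4 in a row of ligand genes that runs EPGN, EREG, AREG and BTC in the RefSeq gene table of GRCh38.p14. The neighbours were examined after the values of EREG were seen and lie outside the rule for named genes. Within 5 protein-coding genes on either side, 10 genes had a named probe, and EREG, around which the row was chosen, alone passed 1.5-fold. Of all kept genes, 3.78% were called lower and 3.04% higher, and of genes under the filter 4.03% and 4.92%. At such shares few or no calls are expected among so few neighbours, so this does not set EREG apart from its row. The chemokine genes CXCL5, CXCL3 and CXCL2, which stand before it, were all under the filter, with differences of -0.26, -0.16 and -0.13. The folate enzyme gene MTHFD2L was also under it, at 0.28. Beyond BTC, the kept genes PARM1, RCHY1 and THAP6 differed by 0.18, -0.24 and -0.31. Values above and below 0 were thus mixed along the row.

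**Figure D3:**
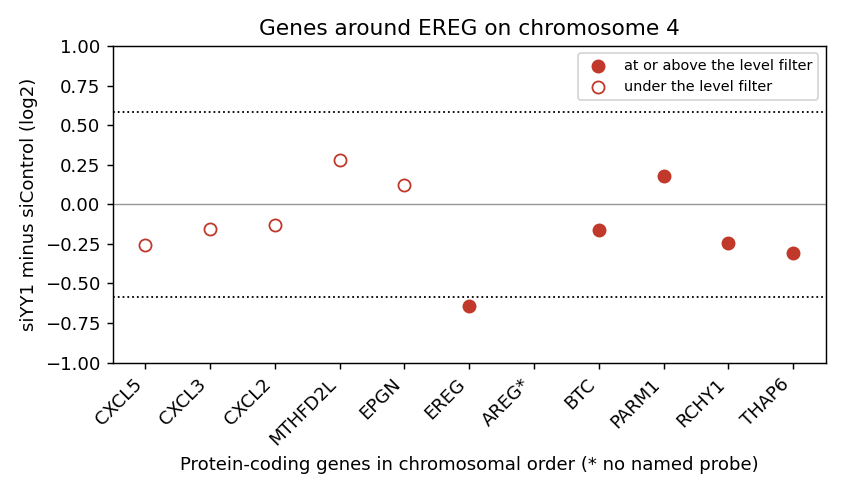
Difference between the arrays (y axis, siYY1 minus siControl, log2) for EREG and the 5 protein-coding genes on each side of it (x axis, in chromosomal order, not to scale), with filled points for kept genes, open points for genes under the level filter and dotted lines at 1.5-fold. EREG, around which the row was chosen, is at -0.64 and is the 1 point past a dotted line. AREG has no point.

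The sequences before the starts of EREG and BTC are shown because these are the measured ligand genes of that row whose values were kept. EREG is chr4:74364895-74365144 on the plus strand and BTC chr4:74794524-74794773 on the minus strand, both of GRCh38.p14 and from the RefSeq promoter table, written in the direction of transcription with motif matches in capitals.
EREG: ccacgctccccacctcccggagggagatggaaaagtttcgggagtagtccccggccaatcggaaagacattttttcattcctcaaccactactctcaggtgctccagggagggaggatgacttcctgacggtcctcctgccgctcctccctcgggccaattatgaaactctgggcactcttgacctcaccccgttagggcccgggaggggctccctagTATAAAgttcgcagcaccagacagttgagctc
BTC: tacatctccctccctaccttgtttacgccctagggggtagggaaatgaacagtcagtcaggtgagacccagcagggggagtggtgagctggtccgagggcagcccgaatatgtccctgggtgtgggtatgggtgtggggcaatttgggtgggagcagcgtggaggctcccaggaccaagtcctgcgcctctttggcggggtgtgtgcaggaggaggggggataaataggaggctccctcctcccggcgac

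Each window was searched on both strands for CCATNTT, the core of the motif of YY1. The motif TGANTCA stood for AP-1, a factor downstream of ERK. The GC box was searched as GGGCGG, which many promoters without a TATA box carry. The TATA box was searched as TATAAA. Of the 10 family genes, 9 (all but ERBB3) had an entry, with 11 windows of 250 bases in all. No base belonged to matches of more than 1 motif. CCATNTT was in 0 of the 11 windows, beside 11.6% of all 35116 windows of that length. TATAAA was found before EREG, with its first base at -32 from the start, and before AREG and EPGN, at -29 in both; a second listed start of EGFR held it too. In all, TATAAA was in 4 of the 11 windows, beside 10.7% of all windows. GGGCGG was in 5 of the 11 windows, beside 42.6% of all windows. These were AREG, ERBB4, HBEGF, the first listed start of EGFR and a single start of TGFA. TGANTCA was in 2 of the 11, before ERBB2 and the second start of EGFR, beside 6.57% of all windows. These are matches of letters and say nothing about binding in these cells.

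The rest of the pathway was read through 7 lists with 112 genes outside the family, of which 100 had a named probe and 77 were kept. In them 4 kept genes (5.19%) were called higher and 3 (3.90%) called lower, beside 3.04% and 3.78% of all kept genes, and the median difference was 0.01. All 5 other ligands of the family (EGF and NRG1 to NRG4) were under the filter. EGF, the founding ligand, had 4.31 in siControl and 4.97 in siYY1. This made it 1.59-fold higher (difference 0.67), past 1.5-fold and opposite in direction to EREG, but at levels not shown to be above background. The other differences ran from -0.39 for NRG3 to 0.12 for NRG4, and no value of the 5 exceeded 6.01 on either array.

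The proteases and carriers that release or export ligands held 8 kept genes, with 0 past 1.5-fold and a median of 0.13. The lowest was RHBDF2 (difference -0.20), which brings the sheddase ADAM17 to the cell surface, and the highest was ADAM10 (0.19), a sheddase of BTC. ADAM17 itself, the main sheddase of AREG, EREG and TGFA, differed by 0.18.

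Of the adaptors and enzymes that act directly behind the receptors, 18 of 27 had a named probe and 17 were kept, with 2 higher, 1 lower and a median of 0.02. GRB2, the adaptor that links phosphorylated receptors to RAS activation, had 12.91 in siControl and 14.04 in siYY1, making siYY1 the higher by 1.13 or 2.18-fold. SOS2, a RAS exchange factor that GRB2 binds, had 10.19 in siControl and 11.11 in siYY1, 1.89-fold higher. PIK3CB, a catalytic subunit of PI3K, had 12.60 in siControl and 11.93 in siYY1, 1.59-fold lower. In size, the differences of GRB2, SOS2 and PIK3CB (-0.67, the lower one) exceeded those of every family gene measured. SOS1, the paralog of SOS2, differed by 0.13.

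Inhibitors and degradation factors of the receptors held 14 kept genes, 7 above and 7 below 0, with 0 past 1.5-fold and a median of -0.02. PTPN1, a phosphatase that acts on EGFR, was the lowest (-0.38), and ERRFI1, a direct kinase inhibitor of EGFR, the highest (0.40). The 12 kept genes of receptor endocytosis had 0 past 1.5-fold and a median of -0.01, from -0.20 for HGS, a sorting factor of endosomes, to 0.36 for its partner STAM.

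Outputs of the ERK pathway had 18 kept genes, 9 above and 9 below 0, with a median of 0.00. ETV5, an ETS factor, had 10.16 in siControl and 10.75 in siYY1, 1.51-fold higher, and FOSL1, a subunit of AP-1, had 12.67 and 11.71, 1.94-fold lower. The list thus held 1 gene called in each direction, and EREG, itself known as an ERK output, was not counted in it. Among 18 other receptor tyrosine kinases, 8 were kept, with a median of -0.10. MET, the receptor of hepatocyte growth factor, had 13.69 in siControl and 13.00 in siYY1, 1.61-fold lower, while FGFR2 had 8.76 and 9.39, 1.54-fold higher.

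**Figure D4:**
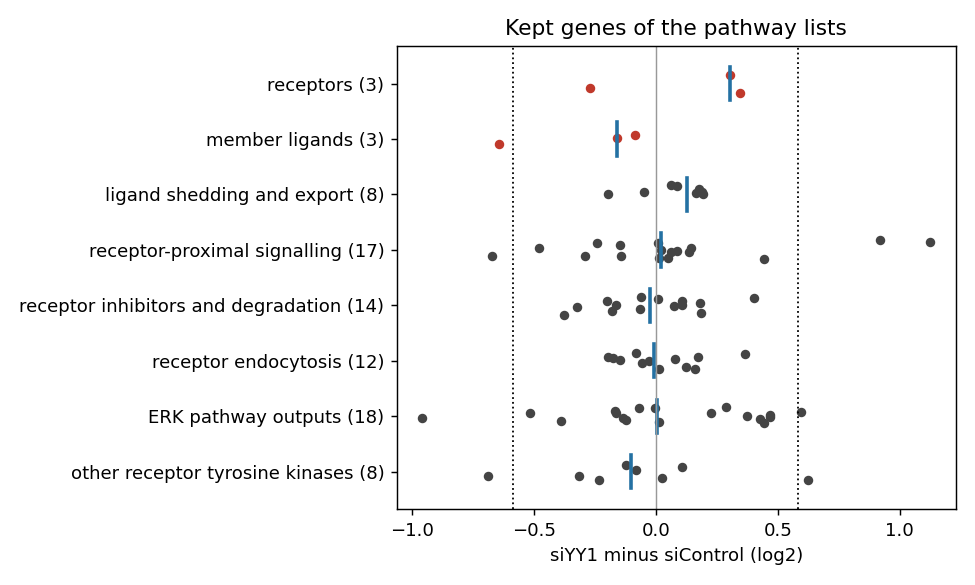
Difference between the arrays (x axis, siYY1 minus siControl, log2) of each kept gene (point) in the family (red) and in the pathway lists with kept genes (grey), by list (y axis, number of kept genes in brackets), with a blue bar at each median and dotted lines at 1.5-fold. GRB2 (1.13) and SOS2 (0.92) are the rightmost points and FOSL1 (-0.96) the leftmost; points are spread vertically at random.

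The arrays were read against marker genes of the labelled cell type. Of 8 colon epithelial markers with a named probe, 6 were kept, EPCAM, CDH1, KRT8, KRT18, KRT19 and CDX2, with differences from -0.34 to 0.19, while CDX1 and VIL1 were under the filter. Markers of fibroblasts (1 of 6 kept), leukocytes (2 of 6) and endothelium (0 of 4) were mostly under it, with list medians of 4.27 to 5.63 on the siControl array and 4.34 to 6.07 on the siYY1 array. The kept exceptions went different ways. CD68 (leukocytes) was 2.12-fold lower, from 8.72 to 7.64, CD79A (leukocytes) differed by 0.04 and COL1A2 (fibroblasts) by 0.45. Among the dim leukocyte markers, LYZ differed by 0.98 and PTPRC by 0.44. The part of these markers in the family's values was not tested.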

How the data were processed

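Titles of the samples gave the groups. The authors deposited 1 value per probe set, treated here as log2 because the values ran from 2.32 to 17.97. Software, normalization and log base: not given in the sources used here. Folds assume base 2. After sorting each array, paired values were within 0.153 of each other. Of 21448 probes, 17709 had 1 gene symbol in GEO's platform annotation and 3739 had none in the table used; each family gene measured had 1 probe, and several probes of a gene were averaged. The level filter, the threshold of 1.5-fold, the lists and the family genes were chosen with earlier results of these data known. Named genes were all family genes and, from each list, the kept genes past 1.5-fold or else the lowest and highest; other names were added for their role after the values were seen. With 2 arrays no likeness of pattern between genes could be computed, and no test was run. The number of arrays limits the precision. Alternatives were other thresholds, filters and normalizations and the brightest probe; lowess centring used a fraction of 0.3. The scripts were tested on simulated data. Tools were pandas 2.3.3, numpy 2.4.6, statsmodels 0.14.6 and matplotlib 3.10.9 under Python 3.11.15.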

Additional observations from a re-analysis of the deposited data

How the results depend on the processing

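Under quantile normalization, median centring and lowess centring, all 20 recomputed differences of family genes kept their sign and their side of 1.5-fold, and the largest move was 0.03; EREG ran from -0.65 to -0.62. Median centring shifts all genes alike, by 0.00, and the brightest probe cannot differ here because each family gene had 1 probe, so neither bears on stability. Quantile normalization had little room to move values, because the sorted values of the arrays were already within 0.153 of each other. Centring was computed for kept genes only, so HBEGF and EPGN were not recomputed under it. The counts depended on the threshold and the filter by construction. At a threshold of 0.32 on the log2 scale, 1 family gene (EGFR) was higher and 1 (EREG) lower. All 8844 kept genes gave 1082 higher and 1192 lower, and the 77 of the pathway lists 12 higher and 8 lower. At 2-fold, 0 family genes were lower, all kept genes gave 33 higher and 51 lower, and the lists 1 higher and 0 lower. Without the filter, all 17687 named genes gave 704 higher and 690 lower, and the 100 of the lists 6 higher and 5 lower. With the filter at the upper quartile, 2 family genes (EGFR and ERBB3) were left and 0 were lower. The 4422 genes then kept gave 87 higher and 117 lower, and the 44 of the lists 1 higher and 3 lower. No paired analysis was possible because each group has 1 array. Scatter between cultures is unknown, and EREG lay 0.06 past the threshold.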
